A study of Mus musculus with 18 samples.

Results

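The 10 genes described here encode receptors of the tumour necrosis factor (TNF) receptor superfamily that T cells can carry: Tnfrsf1a, Tnfrsf1b, Tnfrsf4, Tnfrsf8, Tnfrsf9, Tnfrsf14, Tnfrsf18, Tnfrsf25, Cd27 and Fas. They were taken by symbol, by way of Ensembl identifiers, from 53509 genes listed in 3 count tables, 52506 of which stand in all 3 tables. All 10 were found in every table, and all 10 passed the filter on low counts in every fit. A further 18 genes of the superfamily, named on a separate list, are described only by counts and a few examples.

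The 18 RNA-seq libraries came from mouse DNT cells, T cells without the coreceptors CD4 and CD8, which had been converted from wild type CD4+ T cells of spleen and lymph node. All cells had been stimulated with antibody to CD3 and CD28, which mimics antigen, and the study asks what purinergic signals, that is extracellular ATP and adenosine, do in them. The 6 groups of 3 libraries formed 3 sets, each with its own count table. In set 1, WTATPgs cells had received 400 µM ATPgs, described as an ATP analogue that cannot be hydrolysed, for 6 h, and WT cells had received none. In set 2, ADO cells had received 400 µM adenosine for 6 h, and DNT cells none. In set 3, RA cells had received 400 µM adenosine for 6 h and R cells none, and both carried an A2aR inhibitor (against the A2a type of adenosine receptor) at 250 nM. The labels of the WT and DNT groups are alike. Separate cultures or animals are not named in the labels for the 3 libraries of a group, so a p-value here speaks only of the spread among libraries, which may be technical.

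Receptors of this superfamily bind trimeric ligands on other cells or in solution and signal through their cytoplasmic tails. Most of the members on T cells recruit TRAF adaptor proteins and activate NF-κB, which prolongs the survival and proliferation of stimulated T cells, and they are known as costimulatory receptors. Tnfrsf1a, Tnfrsf25 and Fas carry a death domain in their tails, through which Fas and Tnfrsf1a can start apoptosis. Several of the costimulatory genes are themselves switched on by stimulation through the T cell receptor.

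Total counts per library ran from 20156082 to 24331577. The 12 T cell markers (the CD3 chains, T cell receptor constant regions, Lck, Thy1 and others) summed to 3132 to 4793 CPM (CPM being a gene's counts scaled to the library's total with the TMM factors of its set) in every library, and none of them was at 0. The coreceptor genes Cd4, Cd8a and Cd8b1 summed to 6.39 to 26.7 CPM, so they were low but detected. In set 1 the coreceptor sum was lower in all 3 treated libraries, at 6.39 to 11.9 CPM in WTATPgs, against 21.9 to 24.9 CPM in WT, while markers of other cells were higher in 2 of the 3. The 16 myeloid markers summed to 198, 203 and 53.9 CPM in WTATPgs replicates 1, 2 and 3, against 57.0 to 58.4 CPM in WT, and the 11 B cell markers to 80.4, 79.4 and 12.3 CPM in WTATPgs, against 39.1 to 41.2 CPM in WT. None of the 16 myeloid markers was at 0 in a WTATPgs library, against 0 to 2 of them in WT libraries, and 0 to 2 of the 11 B cell markers were at 0 in WTATPgs, against 0 in WT. The NK cell marker sums overlapped. The 5 regulatory T cell (Treg) markers summed to 2628 to 2972 CPM in WTATPgs, against 2364 to 2412 CPM in WT, with 0 of 5 at 0 in either. In every group most of that sum was Il2ra (group means 1852 to 2307 CPM), which activated T cells also express, and Foxp3, which defines Treg cells, averaged 0.0861 to 0.428 CPM. WTATPgs replicate 3 also stood apart from its 2 fellows over all genes, with a chi-square per gene of 31.82 and 31.99 against 1.73 between the other 2. Ribosomal protein genes took 11.2% to 11.9% of counts in RA and 9.93% to 15.3% in R, whereas they took 4.52% to 4.72% in WTATPgs and 4.92% to 5.04% in WT, and 5.04% to 5.16% in set 2. Mitochondrially encoded genes took 1.89% to 2.03% in WTATPgs and 1.69% to 1.70% in WT, and 3.49% to 3.73% in RA and 2.99% to 5.21% in R. The R libraries differed widely, with a chi-square per gene of 53.3 to 257, against 4.38 to 7.93 in RA. In bulk RNA, fewer cells of a type and less RNA per cell cannot be told apart.

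In GRCm38, 7 of the 10 genes lie on chromosome 4 within 10.8 Mb, from 145213463 to 156028895. Tnfrsf1b (ENSMUSG00000028599, 145213463 to 145246870) and Tnfrsf8 (ENSMUSG00000028602, 145267137 to 145315164), both on the minus strand, are 20.3 kb apart with 0 protein-coding genes between them. Tnfrsf4 (ENSMUSG00000029075, 156013843 to 156016612) and Tnfrsf18 (ENSMUSG00000041954, 156026164 to 156028895), both on the plus strand, are 9.6 kb apart, also with 0 between them. Tnfrsf9 (ENSMUSG00000028965, 150914562 to 150946102, plus strand), Tnfrsf25 (ENSMUSG00000024793, 152115934 to 152120119, plus strand) and Tnfrsf14 (ENSMUSG00000042333, 154921933 to 154928563, minus strand) lie between the 2 pairs. Cd27 (ENSMUSG00000030336, 125232622 to 125237010, minus strand) and Tnfrsf1a (ENSMUSG00000030341, 125349362 to 125362484, plus strand) are 112.4 kb apart on chromosome 6, and Fas (ENSMUSG00000024778, 34290666 to 34327772, plus strand) is on chromosome 19. The exons of Tnfrsf18 share 414 bases with those of the antisense gene Gm16008, which held 309 counts over the 18 libraries, against 8824 for Tnfrsf18. Whether the counting used strand is not given in the sources used here, so reads in those bases cannot be assigned with certainty.

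The start regions of 4 genes on which the results below turn are shown as RefSeq gives them in GRCm38.p6, from 250 bases before to 50 after the annotated start, 5′ to 3′ on the gene's own strand. Tnfrsf1b and Tnfrsf4 are shown because they moved in opposite directions with both ligands, Tnfrsf9 because it was the most abundant, and Fas because it moved with ATPgs. Cd27 and Tnfrsf14 also fell with ATPgs, but they are not shown, and their windows held none of the motifs named below. Capitals mark matches to GGNNTTTCC, the inner part of a κB-like site, or to TGANTCA, an AP-1 site, on either strand.
Tnfrsf1b (chr4:145246821-145247120, minus strand): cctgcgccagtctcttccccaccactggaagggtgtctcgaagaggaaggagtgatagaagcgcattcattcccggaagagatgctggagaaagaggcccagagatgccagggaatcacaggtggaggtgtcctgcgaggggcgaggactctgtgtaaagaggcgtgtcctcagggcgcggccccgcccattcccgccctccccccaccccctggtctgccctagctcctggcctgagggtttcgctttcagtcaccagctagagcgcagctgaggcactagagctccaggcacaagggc
Tnfrsf9, downstream start (chr4:150927749-150928048, plus strand): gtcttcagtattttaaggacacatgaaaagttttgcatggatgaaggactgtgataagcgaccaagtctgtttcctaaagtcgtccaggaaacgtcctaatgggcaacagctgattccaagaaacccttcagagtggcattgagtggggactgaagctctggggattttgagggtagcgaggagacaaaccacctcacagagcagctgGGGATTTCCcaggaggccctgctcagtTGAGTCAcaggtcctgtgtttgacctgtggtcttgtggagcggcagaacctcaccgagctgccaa
Tnfrsf4 (chr4:156013445-156013744, plus strand): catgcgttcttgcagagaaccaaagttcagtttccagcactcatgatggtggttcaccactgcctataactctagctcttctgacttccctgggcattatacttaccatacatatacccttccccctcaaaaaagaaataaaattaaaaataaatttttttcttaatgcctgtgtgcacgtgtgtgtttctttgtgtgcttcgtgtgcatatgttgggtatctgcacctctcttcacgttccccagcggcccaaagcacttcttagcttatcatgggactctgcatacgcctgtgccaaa
Fas (chr19:34290409-34290708, plus strand): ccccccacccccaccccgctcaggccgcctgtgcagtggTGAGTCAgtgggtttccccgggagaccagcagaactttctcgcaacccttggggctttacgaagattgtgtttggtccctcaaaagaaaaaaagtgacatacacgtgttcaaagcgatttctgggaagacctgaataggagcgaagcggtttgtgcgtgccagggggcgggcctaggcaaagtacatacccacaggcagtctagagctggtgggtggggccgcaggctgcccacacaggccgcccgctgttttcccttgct
RefSeq gives 2 starts for Tnfrsf9, and the downstream start is shown because it held matches, while the upstream window held none. The downstream window held both motifs, the κB-like match beginning 42 bases and the AP-1 match 15 bases before the start. The window of Fas held an AP-1 match 211 bases before the start, and those of Tnfrsf1b and Tnfrsf4 held no match. RefSeq gave 12 such windows for the 10 genes, with 2 each for Tnfrsf9 and Tnfrsf25. The κB-like letters were in 2 of the 12 windows (Tnfrsf9 and Tnfrsf25), against 5.82% of the 32851 windows of all genes, and the AP-1 letters in 3 of 12 (Tnfrsf8, Tnfrsf9 and Fas), against 7.81%. TGACGTCA, the full cyclic AMP response element, was in 0 of 12, against 1.79%, and its shorter core TGACG, which the full element contains, in 1 of 12 (Tnfrsf25), against 20.8%. A match is a string of letters and not a measured binding site.

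Of the 10 genes, Tnfrsf9 (CD137), a costimulatory receptor of activated T cells, was by far the most abundant. Per kilobase of exon it averaged 748 CPM over the 18 libraries, 57th of 21819 protein-coding genes, and it made up 76.9% of the summed level of the 10 genes (SD 2.14, n = 18 libraries). Tnfrsf8 (CD30), a receptor of activated lymphocytes, followed with 71.3 CPM per kb and Tnfrsf1b (TNFR2), the TNF receptor without a death domain, with 46.1. Cd27, carried by naive and memory T cells, averaged 27.3 CPM per kb and Tnfrsf4 (OX40), a costimulator induced by stimulation, 24.0. The remaining 5 lay between 6.30 (Tnfrsf25) and 15.2 CPM per kb (Tnfrsf1a). The plot of levels per exon length shows that Tnfrsf9 stayed first in all 6 groups, whereas the order of the others varied by set. With the longest transcript in place of all exons, 2 of 45 pairs of genes changed places and the share of Tnfrsf9 was 78.7%.

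**Figure D1:**
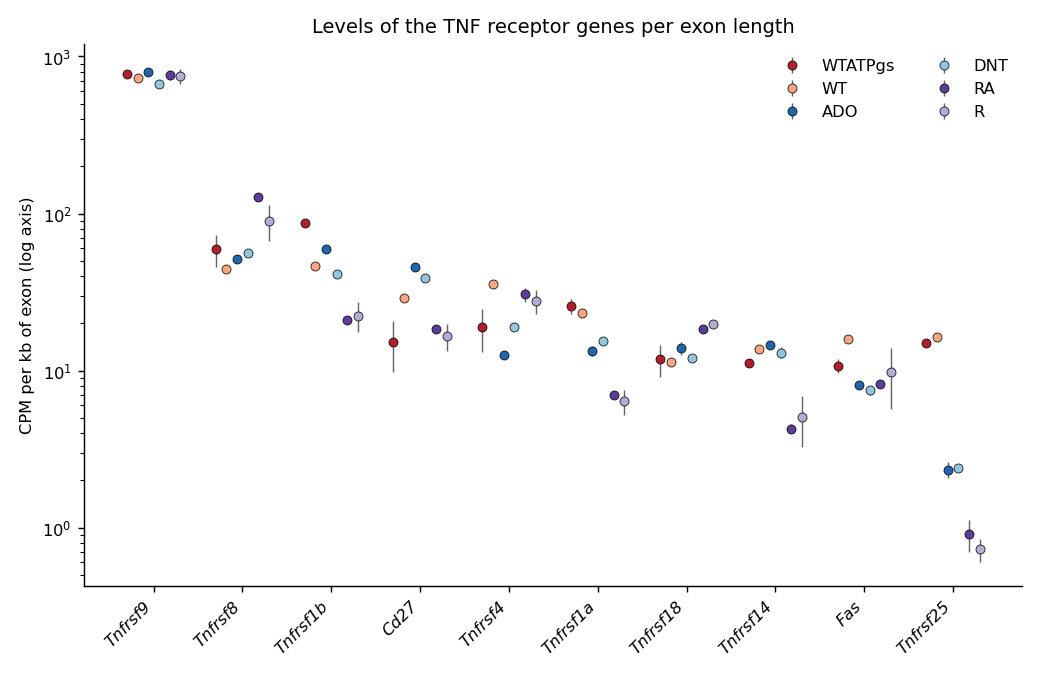
Mean CPM per kb of exon (log axis) for the 10 receptor genes, ordered by their mean over 18 libraries, in the 6 groups of 3 libraries; bars are the SD. With the TMM factors of each set, Tnfrsf9 lies between 663 and 802 CPM per kb in every group. Tnfrsf25 covers the widest range, with the 2 groups of set 1 far above the 4 others.

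Levels across groups differed most for Tnfrsf25 (DR3), the death domain receptor of the cytokine TL1A. It measured 33.4, 33.5 and 35.2 CPM in WTATPgs and 37.0, 38.4 and 37.0 CPM in WT, against 6.03, 4.87 and 5.02 CPM in ADO, 5.63, 5.47 and 5.22 CPM in DNT, 1.78, 1.79 and 2.63 CPM in RA, and 1.96, 1.42 and 1.60 CPM in R. The highest group mean was thus 22.6-fold the lowest, and with all 18 libraries scaled together the means of WT and R were 32.5 and 2.16 CPM. The steps from set 1 to set 2 and from set 2 to set 3 were free of overlap, whereas ADO overlapped DNT and RA overlapped R. WT and DNT carry the same labels, and yet Tnfrsf25 averaged 37.5 ± 0.775 CPM in WT and 5.44 ± 0.205 CPM in DNT (SD, n = 3 each). The sets were counted and scaled separately, so these steps were not tested and cannot be told apart from any other difference between the sets.

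The other orders were shallower. Tnfrsf1a (TNFR1), the death domain receptor for TNF, ran from WTATPgs (mean 66.7 CPM) and WT (60.1) through DNT (40.1) and ADO (34.6) to RA (18.1) and R (16.5), and only WTATPgs with WT and RA with R overlapped. Tnfrsf1b ran in the order WTATPgs, ADO, WT, DNT, R, RA, with means from 332 to 80.0 CPM, and only R and RA overlapped (with joint scaling also DNT and R). Tnfrsf14 (HVEM), which binds the ligand LIGHT and the inhibitory receptor BTLA, ran from ADO (20.9 CPM) through WT, DNT and WTATPgs (16.1) to R (7.31) and RA (6.14), with overlaps of WT with DNT and of R with RA. Tnfrsf8 and Tnfrsf18 (GITR), a costimulator also known from regulatory T cells, were highest in set 3. Tnfrsf8 averaged 438 CPM in RA and 311 in R, against 153 to 205 in the other 4 groups. RA lay above R, and R overlapped WTATPgs, which overlapped DNT (with joint scaling only WTATPgs and DNT overlapped). Tnfrsf18 averaged 28.2 CPM in RA and 30.0 in R, which overlapped, against 17.4 to 21.2 in the other 4, where WTATPgs overlapped both DNT and WT.

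Cd27 was highest in ADO (106 CPM) and DNT (90.3), then WT (67.7), RA (42.8), R (38.6) and WTATPgs (35.6). RA overlapped R and R overlapped WTATPgs (with joint scaling also WT and RA). For Tnfrsf4, Tnfrsf9 and Fas the order of the groups changed when all 18 libraries were scaled together, because the joint scaling factors were 0.597 to 0.846 in set 3 and 1.12 to 1.19 in the other sets. Tnfrsf4 then led in RA and R (55.3 and 49.3 CPM), ahead of WT (41.8), whereas with separate scaling WT (48.2) was ahead of RA (41.7) and R (37.9). By its mean Fas was highest in WT under both scalings, but with joint scaling WT (27.0 to 29.0 CPM) overlapped R (15.5 to 39.9 CPM). With joint scaling R overlapped WT for Tnfrsf4 as well. Tnfrsf9 with joint scaling averaged 2773 CPM in RA and 2673 in R, which overlapped. ADO (1923), WTATPgs (1817), WT (1720) and DNT (1583) followed without overlap. The highest group mean of Tnfrsf9 was thus 1.752-fold the lowest, against 1.209-fold with separate scaling.

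**Figure D2:**
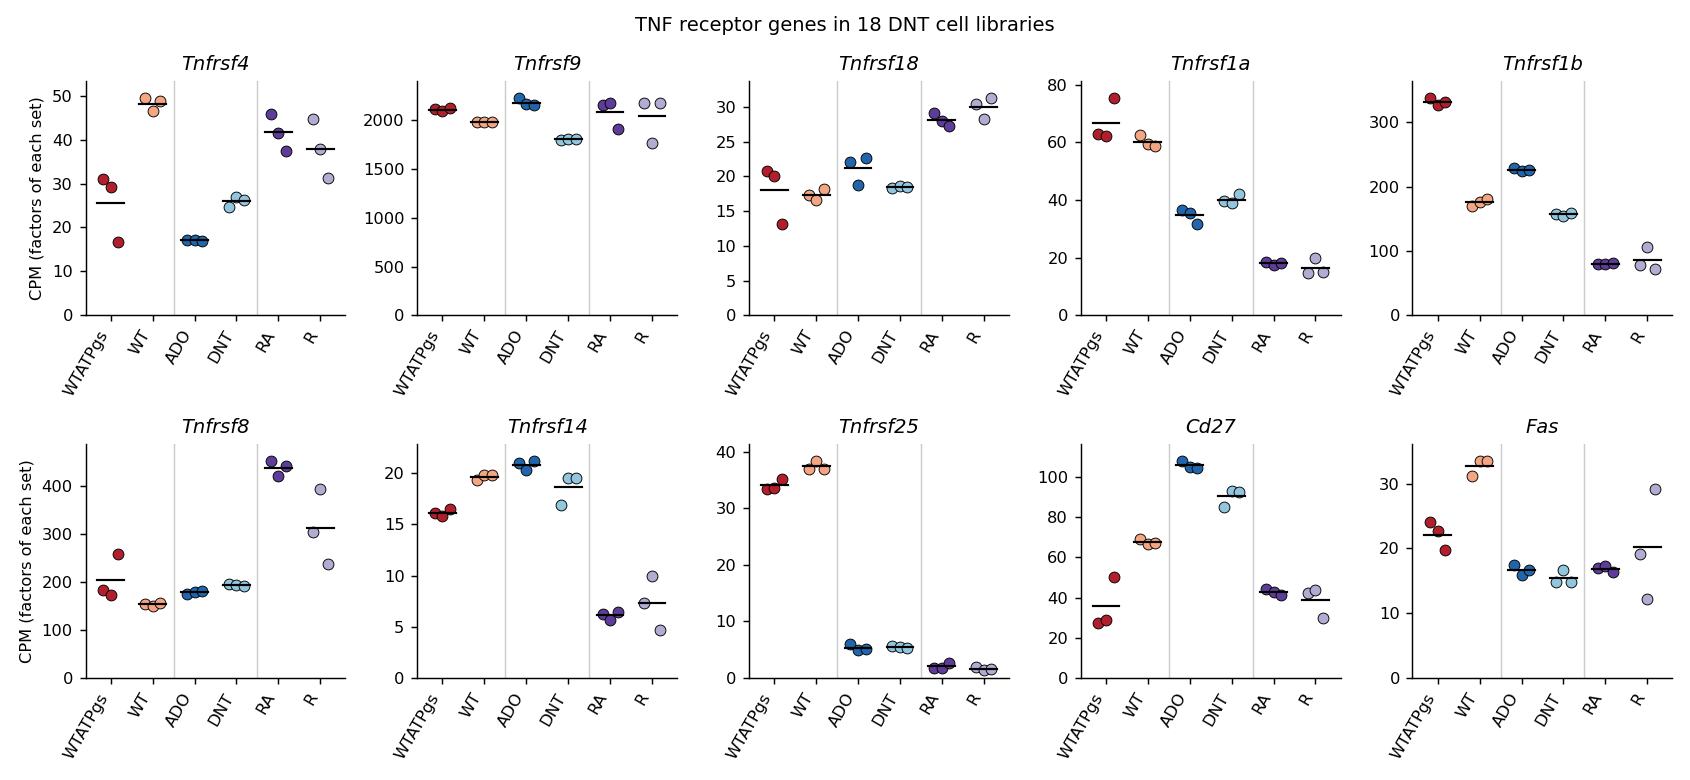
CPM of the 10 receptor genes in each of 18 libraries, scaled with TMM factors of its own set; points are libraries, lines are means of 3, and grey lines part the 3 sets. Tnfrsf1b is higher in all 3 WTATPgs and all 3 ADO libraries than in their controls, Tnfrsf4 is lower in them, and the R libraries scatter more than the RA libraries for all genes but Tnfrsf25.

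ATPgs raised 2 of the 10 receptor genes and lowered 4 (edgeR's quasi-likelihood test with Benjamini-Hochberg adjustment over all genes, adjusted p under 0.05, as in every comparison here). Over all genes tested the share that passed was 37.1%. Tnfrsf1b rose, and Tnfrsf4, Cd27, Fas and Tnfrsf14 fell, while Tnfrsf9 rose slightly. Of the 7 receptors without a death domain 2 rose and 3 fell. The groups did not overlap for 8 of the 10 genes, 3 higher and 5 lower in WTATPgs, where 51.3% of all genes tested did not overlap. The median log2 fold change was −0.043 over the 10 genes and −0.001 over all genes.

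Tnfrsf1b measured 337, 327 and 331 CPM in WTATPgs, against 169, 176 and 181 CPM in WT. Every treated library was far above every control, and the 3 treated libraries were close to each other. The rise was 0.92 ± 0.04 on the log2 scale (adjusted p = 1.495e-06; here and below ± after a log2 change is the SE, from 3 libraries a group), and 8.36% of all genes tested had a larger change. It passed under all 14 alternatives, between 0.89 and 0.97. Tnfrsf1a, the other TNF receptor, measured 62.8, 62.2 and 75.2 CPM in WTATPgs and 62.4, 59.3 and 58.6 CPM in WT. The groups overlapped, replicate 3 was the highest, and the log2 fold change of 0.15 ± 0.08 (adjusted p = 0.156) did not pass.

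Among the costimulatory genes, Tnfrsf4 measured 31.0, 29.3 and 16.7 CPM in WTATPgs, against 49.4, 46.5 and 48.7 CPM in WT. All treated libraries were below all controls, and replicate 3 was the lowest. It fell by 0.91 ± 0.23 (adjusted p = 0.0302). Cd27 measured 27.4, 28.9 and 50.4 CPM in WTATPgs, against 69.4, 66.8 and 67.0 CPM in WT, again without overlap, but here replicate 3 was the nearest to the controls. It fell by 0.93 ± 0.26 (adjusted p = 0.0421). Without WTATPgs replicate 3 the fall was 0.68 ± 0.05 for Tnfrsf4 (adjusted p = 8.192e-16) and 1.27 ± 0.05 for Cd27 (adjusted p = 2.804e-28). Those small p-values rest on replicates 1 and 2, which were close to each other over all genes (chi-square per gene 1.73). Both of those libraries held the higher myeloid and B cell marker sums, so this fit is not firmer evidence. Both calls were lost without any of WT replicates 1, 2 and 3 (adjusted p = 0.0799, 0.0702 and 0.0786 for Tnfrsf4, and 0.105, 0.0982 and 0.101 for Cd27) and without WTATPgs replicate 2 (0.0527 and 0.132), and that of Cd27 also without WTATPgs replicate 1 (0.114). With no filter on low counts both missed the threshold as well (0.0843 for Tnfrsf4 and 0.132 for Cd27). In the fits where the calls were lost the changes were −1.01 to −0.90 for Tnfrsf4 and −0.94 to −0.75 for Cd27.

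Tnfrsf9 measured 2113, 2094 and 2130 CPM in WTATPgs, against 1982, 1989 and 1984 CPM in WT. The groups were close but did not overlap, and the rise was 0.09 ± 0.03 (adjusted p = 0.0296). That call was lost without any of WT replicates 1, 2 and 3 (adjusted p = 0.132, 0.130 and 0.131) and without WTATPgs replicate 1 (0.0854) or 2 (0.0586), with no filter (0.202) and with the replicate block (0.110), at changes of 0.08 to 0.11. Tnfrsf14 measured 16.1, 15.8 and 16.5 CPM in WTATPgs, against 19.4, 19.8 and 19.9 CPM in WT, and fell by 0.29 ± 0.07 (adjusted p = 0.00927, and 0.0518 without WTATPgs replicate 2). Its 6 libraries formed 2 tight groups, with SDs of 0.340 and 0.263 CPM. Tnfrsf8 measured 182, 174 and 259 CPM in WTATPgs, against 154, 150 and 156 CPM in WT. It was higher in all 3 treated libraries, but replicate 3 stood far above its fellows and the change of 0.42 ± 0.16 did not pass (adjusted p = 0.0968). Without replicate 3 it passed, at 0.21 ± 0.03 (adjusted p = 4.124e-08). Tnfrsf18 measured 20.84, 20.03 and 13.14 CPM in WTATPgs and 17.3, 16.7 and 18.2 CPM in WT, so that replicate 3 lay below the controls and the others above them. Its change of 0.05 ± 0.17 (adjusted p = 0.845) became 0.23 ± 0.08 (adjusted p = 0.0117) without replicate 3.

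Of the 3 death domain receptors 1 fell. Fas, the receptor through which killer cells and activated T cells induce apoptosis, measured 24.1, 22.6 and 19.7 CPM in WTATPgs, against 31.1, 33.5 and 33.5 CPM in WT. All treated libraries were lower, and the fall was 0.56 ± 0.08 (adjusted p = 0.000976). Without replicate 3 it was 0.49 ± 0.07. Tnfrsf25 was at 34.1 ± 1.02 CPM in WTATPgs and 37.5 ± 0.775 CPM in WT (SD, n = 3 each), without overlap, and its change of −0.14 ± 0.05 did not pass (adjusted p = 0.0677), but did without replicate 3 (−0.17 ± 0.06, adjusted p = 0.00971). In every fit without replicate 3 the spread of the treated group is that between replicates 1 and 2 alone. With replicate 3 left out, 9 of the 10 genes were called, 4 higher and 5 lower, Tnfrsf1a being the exception, while over all genes 8381 were called, against 5612 with all libraries. Without each WT library in turn 3 were called, without WTATPgs replicate 1 there were 4 and without replicate 2 there were 2, while 3885 to 4303 of all genes were called in these 5 fits. The number of genes tested is not given here for fits that left out a library. The receptor counts of those fits therefore have no share of all genes beside them. With all 18 libraries in a single fit, Tnfrsf9, Tnfrsf14 and Fas did not pass (adjusted p = 0.645, 0.173 and 0.0523) and Tnfrsf8 did (0.0495). The part of the coreceptor, myeloid, B cell and Treg markers in these results was not tested.

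**Figure D3:**
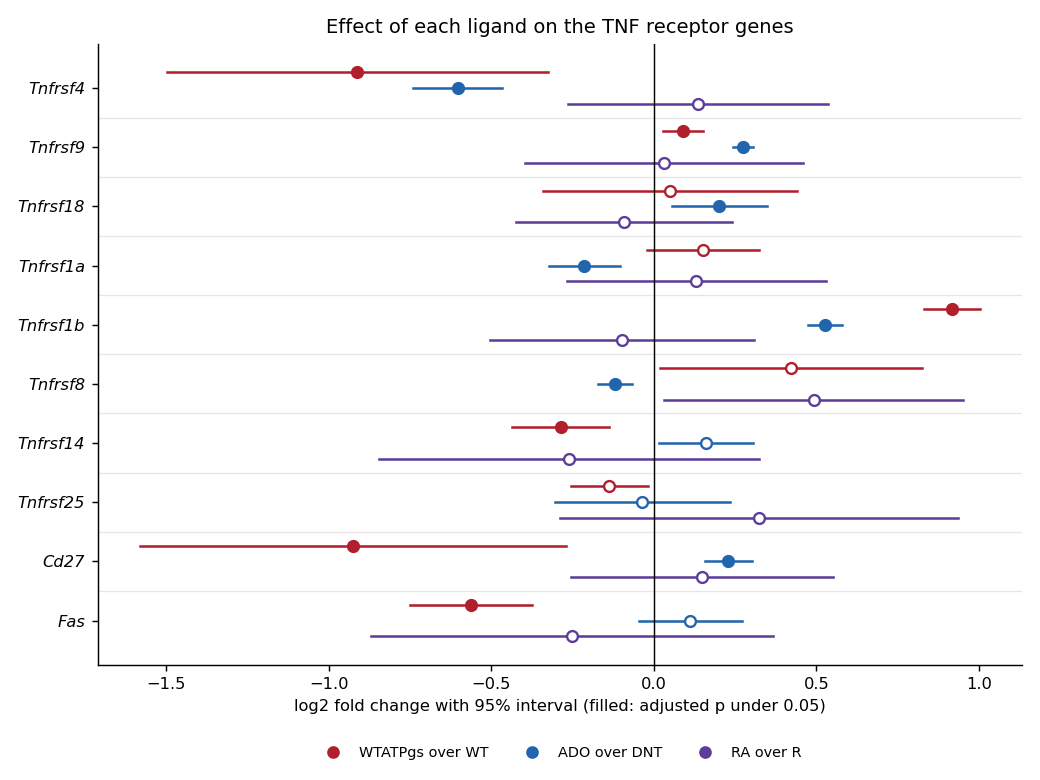
Log2 fold change of each receptor gene for WTATPgs over WT (red), ADO over DNT (blue) and RA over R (purple), with 95% intervals from edgeR; filled points have an adjusted p under 0.05. Tnfrsf1b is higher and Tnfrsf4 lower with both ligands alone, Cd27 and Fas have a filled point left of 0 in the red series alone, and no purple point is filled.

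Adenosine alone raised 4 of the 10 genes and lowered 3, in a set with a very small spread between libraries, where 50.2% of all genes tested passed. Tnfrsf1b, Tnfrsf9, Cd27 and Tnfrsf18 rose, and Tnfrsf4, Tnfrsf1a and Tnfrsf8 fell. Of the 7 receptors without a death domain 4 rose and 2 fell, and of the 3 with it 1 fell. The groups did not overlap for 8 genes, 5 higher and 3 lower in ADO, against 55.8% of all genes tested. The median log2 fold change was 0.136 over the 10 genes and 0.002 over all genes. When all 18 libraries were fitted together, only Tnfrsf1b and Tnfrsf4 passed, and the changes were about as large for the others, such as 0.28 for Tnfrsf9 and 0.24 for Cd27. The myeloid markers summed to 34.1 to 38.1 CPM in ADO, against 23.9 to 25.3 CPM in DNT, with 1 to 3 of 16 at 0 in ADO and 3 to 5 in DNT, and 6 NK cell markers to 339 to 357 CPM in ADO, against 441 to 447 CPM in DNT, with 0 at 0 in either. The B cell markers summed to 19.5 to 22.3 CPM in ADO, against 28.8 to 32.3 CPM in DNT, with 2 to 4 of 11 at 0 in either, the coreceptors to 17.8 to 20.8 CPM in ADO, against 25.3 to 26.7 CPM in DNT, and the Treg markers to 2452 to 2515 CPM in ADO, against 2213 to 2260 CPM in DNT. Only 3 of the 11 B cell markers were tested with adenosine, and of these Ighm alone passed, as lower. The part of all these marker lists in the results was not tested.

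Tnfrsf1b measured 229, 224 and 226 CPM in ADO, against 158, 154 and 159 CPM in DNT. The groups were far apart, and the rise was 0.53 ± 0.03 (adjusted p = 4.306e-23), with all 14 alternatives between 0.51 and 0.57. Tnfrsf1a measured 36.6, 35.4 and 31.8 CPM in ADO, against 39.6, 38.9 and 41.9 CPM in DNT. It was lower in every treated library and fell by 0.21 ± 0.05 (adjusted p = 0.000896), so that the 2 TNF receptor genes moved in opposite directions.

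Tnfrsf4 measured 17.1, 17.3 and 16.9 CPM in ADO, against 24.6, 27.0 and 26.3 CPM in DNT. The 3 treated libraries were almost the same and all were below the controls. The fall was 0.60 ± 0.07 (adjusted p = 1.376e-10) and passed under all 14 alternatives. Its neighbour Tnfrsf18, 9.6 kb away, measured 22.1, 18.8 and 22.6 CPM in ADO, against 18.3, 18.6 and 18.4 CPM in DNT. The groups barely parted, at replicate 2, and the rise of 0.20 ± 0.07 (adjusted p = 0.0188) was lost without DNT replicate 1 (adjusted p = 0.0524), without ADO replicate 1 (0.0809) or 3 (0.128), and with DESeq2 (0.0697). Tnfrsf9 measured 2227, 2168 and 2154 CPM in ADO, against 1798, 1805 and 1814 CPM in DNT, and rose by 0.27 ± 0.02 (adjusted p = 9.904e-21). In CPM this was the largest difference among the 10 genes, 378 CPM.

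Cd27 measured 108, 105 and 104 CPM in ADO, against 85.1, 93.2 and 92.7 CPM in DNT, and rose by 0.23 ± 0.04 (adjusted p = 3.375e-07). Tnfrsf8 measured 175, 180 and 180.1 CPM in ADO, against 196, 194 and 191 CPM in DNT, and fell by 0.12 ± 0.03 (adjusted p = 0.000132). Both shifts were small but free of overlap. Tnfrsf14 measured 21.1, 20.3 and 21.2 CPM in ADO and 16.9, 19.6 and 19.6 CPM in DNT, and its change of 0.16 ± 0.07 did not pass (adjusted p = 0.0611), though it did without DNT replicate 3 (0.20, adjusted p = 0.0426). For the other death domain receptors, Fas averaged 16.6 ± 0.725 CPM in ADO and 15.4 ± 1.04 CPM in DNT, and Tnfrsf25 5.31 ± 0.630 CPM in ADO and 5.44 ± 0.205 CPM in DNT (SD, n = 3 each). Both overlapped, with changes of 0.11 ± 0.08 (adjusted p = 0.245) and −0.04 ± 0.13 (adjusted p = 0.849). The interval of the Fas change ran from −0.05 to 0.27 and that of Tnfrsf25 from −0.31 to 0.23.

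With the A2aR inhibitor present in both groups, adenosine changed 0 of the 10 genes by edgeR's quasi-likelihood test, and 0 also with DESeq2 and with limma-voom. In this set 1.14% of all genes tested passed. At an unadjusted p under 0.05 there was 1, Tnfrsf8. The share of all genes at that threshold is not given here, so counts at it have no background beside them. Tnfrsf8 measured 452, 420 and 441 CPM in RA, against 303, 394 and 237 CPM in R. It was the single gene of the 10 whose groups did not overlap, where 20.9% of all genes tested did not. The change was 0.49 ± 0.20 (95% interval 0.03 to 0.95, adjusted p = 0.359), and it passed only with all 18 libraries in a single fit (adjusted p = 0.0235).

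Tnfrsf1b measured 79.0, 79.3 and 81.7 CPM in RA and 78.7, 107 and 71.3 CPM in R. The RA libraries lay within the range of R, and the change was −0.10 ± 0.18 (95% interval −0.50 to 0.31). That interval does not reach the rise of 0.53 seen without inhibitor. Tnfrsf4 measured 46.0, 41.6 and 37.4 CPM in RA and 44.7, 37.8 and 31.2 CPM in R, with a change of 0.14 ± 0.18 (interval −0.26 to 0.54), which likewise does not reach the fall of 0.60 without inhibitor. Tnfrsf9 measured 2163, 2183 and 1915 CPM in RA and 2175, 1771 and 2182 CPM in R. Its change was 0.03 ± 0.19, but the interval of −0.40 to 0.46 holds the 0.27 of the set without inhibitor, so a rise of that size remains possible here. The 6 other genes had changes between −0.26 (Tnfrsf14) and 0.32 (Tnfrsf25), with intervals that held 0. For Cd27, whose rise was 0.23 without inhibitor, the interval was −0.26 to 0.55. The R libraries spread widely for several genes, as in Fas with 17.0, 17.2 and 16.4 CPM in RA, against 19.2, 12.2 and 29.1 CPM in R. The NK cell markers summed to 405 to 417 CPM in RA, against 561 to 575 CPM in R, the B cell markers to 16.2 to 23.0 CPM in RA, against 31.7 to 38.0 CPM in R (4 to 5 of 11 at 0 in RA and 3 to 5 in R), and the Treg markers to 2371 to 2476 CPM in RA, against 1942 to 2000.0 CPM in R. Only 2 of the 11 B cell markers were tested with inhibitor, and 0 passed. The coreceptor and myeloid sums overlapped. The part of these markers, and of the ribosomal and mitochondrial shares, in these values was not tested.

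Whether the effect of adenosine differed with and without inhibitor was tested as a difference of effects over 12 libraries. It differed for 2 of the 10 genes, where 4.05% of all genes tested passed. The effect on Tnfrsf4 was 0.73 ± 0.16 higher with inhibitor than without (adjusted p = 0.0231), and that on Tnfrsf1b was 0.64 ± 0.16 lower (adjusted p = 0.0482). The 12 libraries shared 1 dispersion per gene, although the variation between libraries differed, at 19.6% in set 3 and 2.74% in set 2 (edgeR's common coefficient). For Tnfrsf4 and Tnfrsf1b the SE of the difference was below that of the change with inhibitor alone. These SEs and adjusted p-values may therefore overstate the precision. Both calls were fragile. That of Tnfrsf4 was lost in 11 of 20 alternatives, with an adjusted p of up to 0.137, and that of Tnfrsf1b in 13 of 20, up to 0.349, although the differences themselves stayed between 0.65 and 0.83 and between −0.71 and −0.40. Among single libraries, either call was lost without any of the 3 DNT, the 3 ADO or RA replicates 1 and 2 (adjusted p from 0.0527 to 0.0765 for Tnfrsf4 and from 0.113 to 0.131 for Tnfrsf1b), and that of Tnfrsf1b also without RA replicate 3 (0.107). For Tnfrsf8 the difference was 0.60 ± 0.18 (adjusted p = 0.0927), and on the same libraries it passed with DESeq2 (0.00935) and limma-voom (0.00694), and with edgeR without R replicate 2 (0.85, adjusted p = 0.00161) or 3 (0.50, adjusted p = 0.00736). The difference for Tnfrsf1a passed without R replicate 2 (adjusted p = 0.0160) and that for Tnfrsf14 without R replicate 3 (0.0170). Each set held the inhibitor in all its libraries or in none, so the inhibitor and the set cannot be told apart, and the ribosomal protein share of 11.2% to 11.9% in RA and 9.93% to 15.3% in R, against 5.08% to 5.16% in ADO and 5.04% to 5.12% in DNT, moves with them.

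The effects of ATPgs and adenosine were compared in the same way, both at 400 µM and 6 h, and differed for 6 of the 10 genes, 2 with a higher and 4 with a lower effect of ATPgs. Over all genes tested 17.3% passed. Here too 1 dispersion per gene covered both sets, whose common coefficients of variation were 10.6% in set 1 and 2.74% in set 2. The effects on Fas (−0.67 ± 0.11, adjusted p = 0.000541) and Tnfrsf14 (−0.44 ± 0.10, adjusted p = 0.00630) were lower with ATPgs, and both genes fell with ATPgs, while their changes with adenosine did not pass. The difference for Cd27 was −1.14 ± 0.28 (adjusted p = 0.0256), a gene that fell with ATPgs and rose with adenosine. Tnfrsf1b rose with both, and by 0.40 ± 0.05 more with ATPgs (adjusted p = 1.785e-05). Tnfrsf9 rose with both, and by 0.18 ± 0.03 less with ATPgs (adjusted p = 0.00187). The effect on Tnfrsf1a was 0.37 ± 0.11 higher with ATPgs (adjusted p = 0.0257).

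For Tnfrsf4 the falls of 0.91 and 0.60 did not differ by this test (−0.31 ± 0.25, interval −0.86 to 0.25, adjusted p = 0.464), and that interval allows a larger fall with either ligand. Tnfrsf8 (0.55 ± 0.19, adjusted p = 0.0877), Tnfrsf18 (−0.15 ± 0.18, adjusted p = 0.641) and Tnfrsf25 (−0.10 ± 0.12, adjusted p = 0.636) did not pass. The call for Cd27 was lost, at an adjusted p of 0.0538 to 0.0621, without any single library of WT, DNT or ADO or without WTATPgs replicate 2 (0.0555). The call for Tnfrsf1a was lost without WT replicate 2 (0.0672) or 3 (0.0693), DNT replicate 1 (0.0555) or 3 (0.0802), or ADO replicate 2 (0.0516) or 3 (0.0792). Tnfrsf8 passed on the same libraries with DESeq2 (0.0351) and limma-voom (0.0236), and with edgeR without WTATPgs replicate 2 (0.66, adjusted p = 0.0393) or 3 (0.33, adjusted p = 5.205e-10). With all 18 libraries in a single fit Cd27 alone passed. The 2 ligands were tested in separate sets, so ligand and set cannot be told apart beyond what the control of each set removes.

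**Figure D4:**
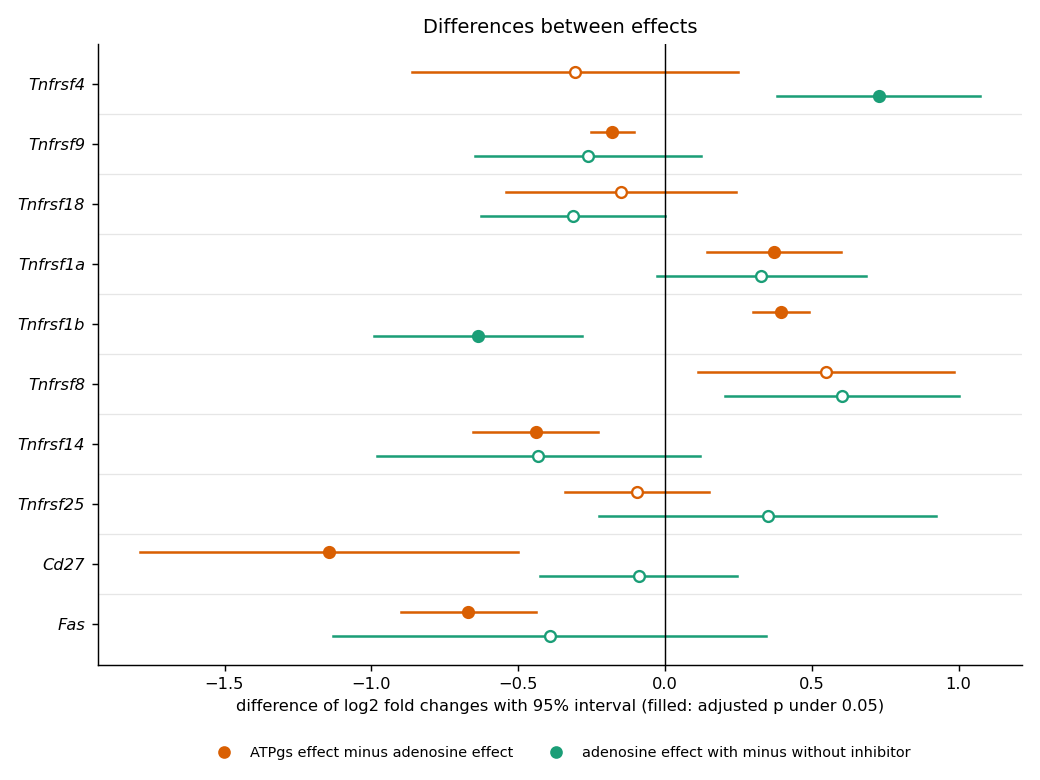
Differences of log2 fold changes for each receptor gene, with 95% intervals: the ATPgs effect minus the adenosine effect (orange), and the adenosine effect with minus without the A2aR inhibitor (green); filled points have an adjusted p under 0.05. Orange is filled for 6 genes, with Cd27 the farthest from 0 at −1.14, and green for Tnfrsf4 (0.73) and Tnfrsf1b (−0.64).

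No gene of the receptors' own ligands rose in any of the 3 comparisons. Of 9 ligand genes tested, of 10 listed, 0 rose and 8 fell with ATPgs, 0 rose and 6 fell with adenosine, and 0 rose and 3 fell with adenosine in the presence of inhibitor, beside the 37.1%, 50.2% and 1.14% of all genes that passed. Their median log2 fold changes were −0.931, −0.747 and −0.714, against −0.001, 0.002 and −0.036 over all genes. Under a few alternatives 1 ligand gene passed as higher, namely with adenosine under library size only or without DNT replicate 3, with ATPgs without a filter, and with inhibitor without R replicate 3. Falls with inhibitor numbered 6 with DESeq2, 4 with limma-voom and 6 with all 18 libraries in a single fit, and 2 without R replicate 1 or any RA library, 4 without R replicate 2 and 6 without R replicate 3.

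Tnf, the ligand of Tnfrsf1a and Tnfrsf1b, averaged 404 ± 17.7 CPM in WTATPgs and 677 ± 6.70 CPM in WT, 193 ± 8.57 CPM in ADO and 420 ± 4.53 CPM in DNT, and 159 ± 16.4 CPM in RA and 357 ± 48.7 CPM in R (SD, n = 3 each). It fell in all 3 comparisons, by 0.75 ± 0.04, 1.12 ± 0.02 and 1.17 ± 0.18. Lta, the lymphotoxin that binds the same receptors, fell by 1.497 ± 0.17, 2.04 ± 0.04 and 1.61 ± 0.16. Cd70, the ligand of Cd27, fell by 2.85 ± 0.30, 2.17 ± 0.24 and 2.08 ± 0.21, at low levels of 0.382 CPM in WTATPgs and 2.80 in WT, 0.734 in ADO and 3.33 in DNT, and 3.08 in RA and 12.97 in R. Thus Tnfrsf1b rose in set 1 and set 2 where both of its ligand genes fell, and Cd27 fell with ATPgs and rose with adenosine while Cd70 fell with each. Tnfsf8 (CD30 ligand) fell by 1.32 ± 0.03 with ATPgs and 0.75 ± 0.02 with adenosine and Tnfsf14 (LIGHT) by 0.93 ± 0.03 and 0.52 ± 0.03, whereas with inhibitor their changes of −0.14 and −0.61 did not pass. Fasl fell by 0.24 ± 0.06 with ATPgs, beside the fall of Fas, and its change of 0.03 ± 0.04 with adenosine did not pass.

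**Figure D5:**
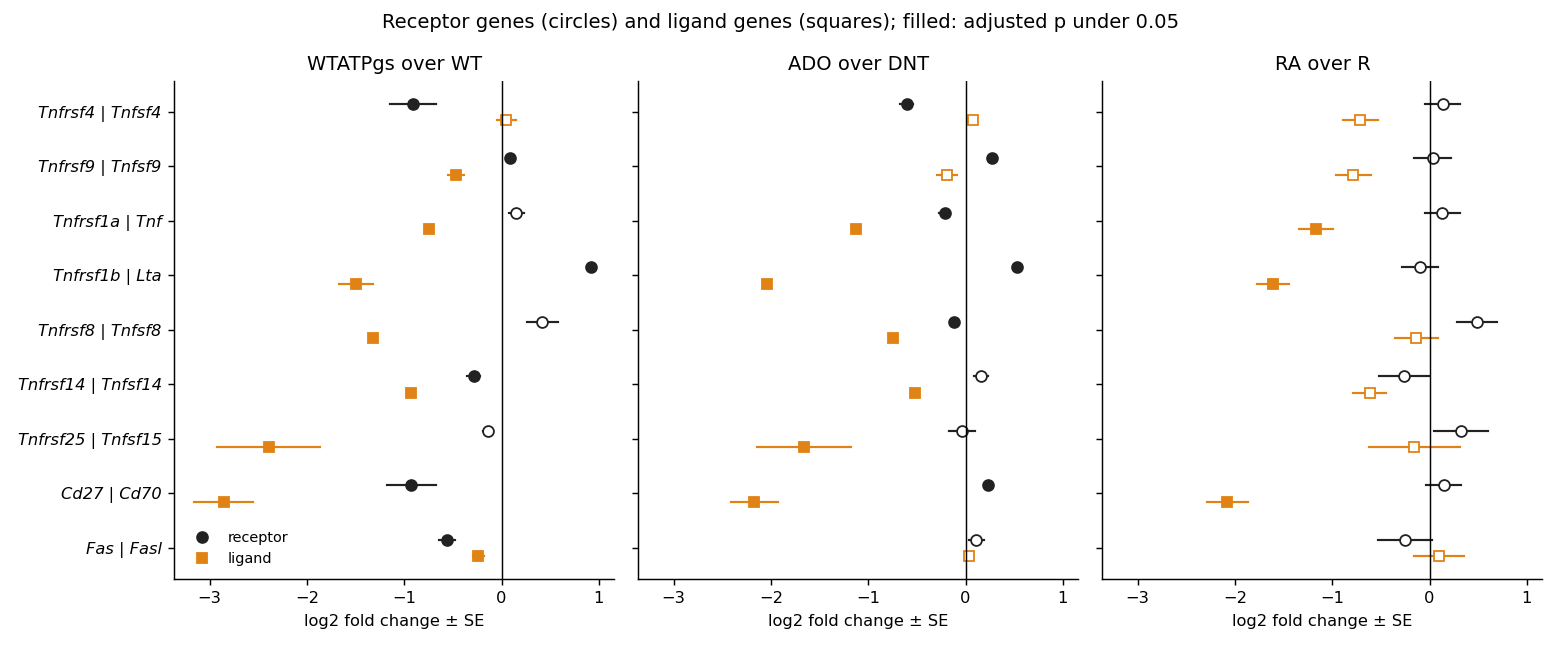
Log2 fold change ± SE of receptor genes (black circles) and of a ligand gene of each (orange squares) for WTATPgs over WT, ADO over DNT and RA over R; filled symbols have an adjusted p under 0.05. Tnf and Lta each bind both Tnfrsf1a and Tnfrsf1b, and Tnfsf18, the ligand of Tnfrsf18, was not tested; most squares lie left of 0, with Lta at −1.497, −2.04 and −1.61, while the circles lie on both sides.

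Of the 18 other superfamily genes, 15 were tested with ATPgs (3 rose, 3 fell), 12 with adenosine (3 rose, 5 fell) and 11 with inhibitor (0 by edgeR, DESeq2 or limma-voom). With inhibitor 4 had an unadjusted p under 0.05, a threshold at which the share of all genes is not given here. The shares called were 40.0% with ATPgs and 66.7% with adenosine, against 37.1% and 50.2% of all genes, so the share with ATPgs was near the background. Without WTATPgs replicate 3, 9 rose and 4 fell with ATPgs, and with scaling to library size only 4 rose and 2 fell. Tnfrsf26, a decoy-type receptor gene of rodents, averaged 13.6 ± 1.24 CPM in WTATPgs and 4.50 ± 0.578 CPM in WT, and 20.6 ± 0.616 CPM in ADO and 6.51 ± 0.487 CPM in DNT (SD, n = 3 each). It rose by 1.60 ± 0.13 and 1.66 ± 0.09, and its paralog Tnfrsf23 by 0.93 ± 0.16 and 1.16 ± 0.14. With inhibitor they averaged 12.6 and 6.27 CPM in RA and 9.58 and 7.14 CPM in R, and did not pass. The adenosine effect was lower with than without inhibitor for Tnfrsf26 (−1.28 ± 0.17, adjusted p = 0.00116), Tnfrsf22 (−1.18 ± 0.18, adjusted p = 0.00347) and Tnfrsf23 (−1.36 ± 0.22, adjusted p = 0.00442). Without R replicate 3, 1 of the 11 rose and 3 fell with inhibitor, beside 1719 of all genes called. With all 18 libraries in a single fit 15 were tested, of which 2 rose and 3 fell with inhibitor, beside 1778 of all genes. Tnfrsf22, Tnfrsf23 and Tnfrsf26 are close paralogs, and the counting could have split their reads.

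Downstream of the receptors, of 16 adaptor genes 5 rose and 3 fell with ATPgs, 7 rose and 3 fell with adenosine, and 0 passed with inhibitor by edgeR, DESeq2 or limma-voom, with 0 also at an unadjusted p under 0.05. Those called were thus 8 of 16 with ATPgs and 62.5% with adenosine, against 37.1% and 50.2% of all genes. Cflar, which encodes the inhibitor of death receptor signalling FLIP, fell by 0.76 ± 0.05 with ATPgs and 0.65 ± 0.02 with adenosine. Traf1, an adaptor of Tnfrsf9 and Tnfrsf1b, rose by 0.28 ± 0.03 and 0.51 ± 0.02, and Birc2, which encodes a ubiquitin ligase of the TRAF complex, by 0.97 ± 0.06 and 0.23 ± 0.04. Of 16 NF-κB pathway genes 4 rose and 5 fell with ATPgs and 2 rose and 5 fell with adenosine. With inhibitor 0 passed by edgeR in the 6 libraries of the set with TMM factors. Under alternatives 2 were lower with DESeq2, and 1 each with limma-voom, with RLE factors, with no filter and without R replicate 2. Without R replicate 3 and with all 18 libraries in a single fit 6 were lower, beside 1719 and 1778 of all genes. At an unadjusted p under 0.05 there were 6 with inhibitor, all lower, but the share of all genes at that threshold is not given here. The shares called were 56.2% with ATPgs and 43.8% with adenosine, the second below the 50.2% of all genes. With scaling to library size only these counts were 5 and 3 with ATPgs, and 6 and 4 with adenosine. Tnfaip3, which encodes the feedback inhibitor A20, rose by 0.71 ± 0.07 with ATPgs and 0.48 ± 0.02 with adenosine, and Rel, an NF-κB subunit, fell by 0.58 ± 0.02 with adenosine. Tnip1, a partner of A20, rose by 0.34 ± 0.04 with ATPgs.

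The gene most like each receptor gene over the 18 libraries was sought among 9396 protein-coding genes, by the root mean square difference in log2 CPM relative to the libraries of the same set without ligand. This is a description across libraries that share sets and controls. For Tnfrsf9 it was Ppil2, at 0.055, and for Tnfrsf1a it was Thap11, at 0.060. Fas was nearest to Cd84 (0.084), Tnfrsf14 to Il2rg (0.097), which encodes the common gamma chain of cytokine receptors, Tnfrsf18 to Tpm1 (0.101) and Tnfrsf1b to Pnrc1 (0.101). Tnfrsf25 was nearest to Dhx9 (0.117), Tnfrsf4 to Dnajc27 (0.134), Tnfrsf8 to Grap2 (0.141) and Cd27 to Ube2cbp (0.215). The median over all candidates was 0.261 to 0.537, depending on the receptor. Among the 10 genes themselves the closest pair was Tnfrsf9 and Tnfrsf18, at 0.157, and the neighbours Tnfrsf4 and Tnfrsf18 were 0.539 apart.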

How the data were processed

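The authors deposited whole-number counts of reads for Ensembl genes in 3 tables, each with 6 libraries. Trizol was used for total RNA and the libraries followed a standard Illumina protocol, per the labels, and per the submitters' processing notes HISAT2 2.1.0 and GRCm38 were used. What counted the reads, with which annotation release and strand setting, is not given in the sources used here. GENCODE M21 gave symbols and coordinates for 99.7%, 99.8% and 99.8% of the 52550, 53465 and 53465 identifiers in the 3 tables.

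Groups and sets came from the sample titles. The test was edgeR's robust quasi-likelihood F test (edgeR 4.0.16, R 4.3.3), two-sided, after filterByExpr and with TMM factors, and p-values were adjusted by Benjamini-Hochberg over all genes tested with a threshold of 0.05, in the 6 libraries of a set for each ligand and in 12 libraries for differences of effects. The SE is the log2 fold change divided by the square root of F. CPM uses TMM factors of each set, and levels between genes use the union of annotated exons. Alternatives were RLE factors, library size only, no filter, at least 1 CPM in 3 libraries, DESeq2 1.42.0, limma-voom (limma 3.58.1) with a weight per group, a fit of all 18 libraries, a replicate block, and leaving out each library. The same alternatives were applied to the other gene lists after the data were seen. The replicate numbers were checked for pairing by the correlation of deviations from group means. The tests were tested on simulated data. Figures were drawn with matplotlib 3.10.9 (Python 3.11.15).

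The receptor genes and the gene lists were chosen with earlier results of these data known. All 10 receptor genes are named, and of each other list only genes among its 4 smallest p-values in a comparison, with Tnfrsf22 and Tnfrsf23 so named by the difference with inhibitor; Fasl and Tnfsf18 are named as partners of receptors, chosen after their values were seen. Of the marker lists, only those for T cells, coreceptors, myeloid, B, NK and Treg cells are used. Precision is limited by 3 libraries a group. All 18 libraries were used.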

Additional observations from a re-analysis of the deposited data

Results flagged for a closer look

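Effects of the same kind of contrast differed between sets for 8 pairs of gene and comparison, each by a test of the difference itself (edgeR, n = 3 libraries in each of 4 groups). With against without the A2aR inhibitor, the effect of adenosine was 0.73 higher for Tnfrsf4 (0.14 with, −0.60 without) and −0.64 for Tnfrsf1b (−0.10 with, 0.53 without), where a negative value means a lower effect with inhibitor. The groups of set 3 overlapped for both genes, while those of set 2 did not. The 2 calls were lost in 11 and 13 of 20 alternatives.

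ATPgs against adenosine gave differences of −0.18 for Tnfrsf9, 0.37 for Tnfrsf1a, 0.40 for Tnfrsf1b, −0.44 for Tnfrsf14, −1.14 for Cd27 and −0.67 for Fas. For Cd27 the 2 effects had opposite signs (−0.93 with ATPgs, 0.23 with adenosine) and each passed its own test, but the ATPgs call was lost in 6 of 14 alternatives and that of the difference in 11 of 20. For Fas and Tnfrsf14 the ATPgs effect passed (−0.56 and −0.29) and the adenosine effect did not (0.11 and 0.16). For Tnfrsf1a the adenosine effect passed (−0.21) and the ATPgs effect did not (0.15), and the call of the difference was lost in 8 of 20 alternatives. The difference for Tnfrsf1b was the one with the smallest adjusted p by edgeR, 1.785e-05. Every WTATPgs library (327 to 337 CPM) was above every ADO library (224 to 229 CPM). WT (169 to 181 CPM) and DNT (154 to 159 CPM) lay closer together, but they did not overlap either. The sets were scaled separately, so the gap in level between WTATPgs and ADO cannot be told apart from a difference between the sets.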

How the results depend on the processing

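The calls of Tnfrsf1b with ATPgs and adenosine and of Tnfrsf4 with adenosine passed under all alternatives run. With all 18 libraries in a single fit, genes called were 3299 with ATPgs, 2309 with adenosine, 1778 with inhibitor, 1009 for the difference with inhibitor and 302 for the difference between ligands, and receptor genes called were 2 with adenosine, 1 with inhibitor and 1 in each difference. Without a filter, 3 receptor genes and 5782 of all genes were called with ATPgs. The difference with inhibitor then held 1 receptor gene and 658 of all genes, and 485 genes were called with inhibitor. With library size only, 73 genes were called with inhibitor, and 240 genes and 0 receptor genes in its difference. That scaling gave a median log2 fold change of all genes of 0.093 with inhibitor, against −0.036 with TMM, and the gene counts were 3226 higher and 2331 lower with ATPgs, against 2678 and 2934 with TMM, and 4418 and 2850 with adenosine, against 3707 and 3574. RLE factors left 1 receptor gene in the difference with inhibitor, beside 584 of all genes. DESeq2 called 533 genes with inhibitor and 1367 in its difference. The cause of these shifts was not tested.

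No pairing by replicate number was seen: correlations of same-numbered libraries were −0.048, 0.024 and −0.045 in set 1, 0.014, −0.013 and 0.009 in set 2, and 0.171, −0.423 and −0.220 in set 3. In WT the chi-square per gene between replicates was only 2.0 to 2.621, and within the groups of set 2 it was 2.033 to 2.625. Such small deviations could hide a pairing, so the check cannot exclude it in sets 1 and 2. Between other-numbered libraries of set 3 they ran from −0.153 (R replicate 1 with RA replicate 3) to 0.368 (R replicate 3 with RA replicate 2). A block by replicate number does not cover likeness of that kind. With the replicate block 5, 7 and 0 receptor genes were called with ATPgs, adenosine and inhibitor, beside 4792, 7398 and 134 of all genes. In the difference with inhibitor 0 receptor genes and 160 of all genes were called. In that between ligands 4 receptor genes and 2215 of all genes were called.

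Leaving out each library gave 3885 to 8381 genes and 2 to 9 receptor genes with ATPgs, 6687 to 6905 and 6 to 8 with adenosine, 36 to 1719 and 0 with inhibitor, 280 to 3051 and 0 to 4 for the difference with inhibitor, and 1943 to 5367 and 4 to 7 for that between ligands. Signs turned only for changes that had not passed. With ATPgs, Tnfrsf18 ran from −0.0563 without WTATPgs replicate 1 (−0.0211 without replicate 2) to 0.2281 without replicate 3. With adenosine, Tnfrsf25 was 0.0097 with library size only and ran from −0.1346 without ADO replicate 1 to 0.0223 without replicate 2 (0.0029 without replicate 3). With inhibitor and library size only, Tnfrsf18 was 0.0374 and Tnfrsf1b 0.0026. Without R replicate 2 and without R replicate 3, the values with inhibitor were −0.0732 and 0.0805 for Tnfrsf9, 0.0814 and −0.2155 for Tnfrsf1b, 0.0171 and −0.4998 for Tnfrsf14, 0.2399 and −0.0088 for Cd27, and −0.5281 and 0.1098 for Fas, and these were the ends of each range. Tnfrsf9 was −0.0121 and −0.0153 without RA replicates 1 and 2. For the difference with inhibitor, the ends were 0.0578 and −0.1887 for Cd27 and −0.5862 and 0.0502 for Fas, again without R replicates 2 and 3. For that between ligands, Tnfrsf18 ran from −0.2633 without WTATPgs replicate 1 to 0.0228 without replicate 3, and Tnfrsf25 from −0.1571 without ADO replicate 2 to 0.0001 without replicate 1. Depth is least for Tnfrsf25 in R, with 27 to 39 counts per library.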

Other observations

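The 3 R libraries, which share their labels, differed in the receptor genes and in the share of ribosomal protein RNA. R replicate 3 had the highest share (15.3%) and replicate 2 the lowest (9.93%), with replicate 1 at 12.2%. For 4 of the 10 genes replicate 3 had the lowest and replicate 2 the highest CPM, namely Tnfrsf8 (237 and 394), Tnfrsf1b (71.3 and 107), Tnfrsf14 (4.67 and 9.94) and Cd27 (29.8 and 43.9). For 3 genes replicate 3 was the highest and replicate 2 the lowest, namely Fas (29.1 and 12.2), Tnfrsf18 (31.3 and 28.3) and Tnfrsf9 (2182 and 1771). Tnfrsf1a, Tnfrsf4 and Tnfrsf25 had neither order. The RA libraries, whose shares lay between 11.2% and 11.9%, stayed within 420 to 452 CPM for Tnfrsf8 and within 16.4 to 17.2 CPM for Fas. This tally was made after the values were seen, and the part of RNA quality in it was not tested. The share of all genes with either order is not given here, and R replicates 2 and 3 differed over all genes (chi-square per gene 257). The tally therefore does not set the receptor genes apart from other genes.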
